A study of Danio rerio with 6 samples.

Results

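Müller glia (MG) of injured zebrafish retinas were compared with and without a knockdown of Apobec2, across 13418 named protein-coding genes. A gene was taken where at least 2 of the 4 libraries reached 1 FPKM, a fragment count scaled to the length of the transcript and to the size of the library. The 13418 genes came from 27152 symbols, of which 18460 were names of single genes or of rows that genes share. Of these names 5042 did not reach the level, and rows of short RNAs and of unnamed clones were left out. The knockdown group holds 2 libraries from retinas that were poked with a needle and given a morpholino against apobec2a and apobec2b. The injured group holds 2 libraries from retinas with the same injury and no such knockdown, and both groups were collected at 2 days post injury. Another 2 libraries came from uninjured retinas and are given for context. The labels give adult gfap:GFP fish for all groups, in which GFP marks MG, and GFP+ cells were sorted by FACS. Knockdown, injured and uninjured MG are names used here for these sorted cells, which also held RNA of other retinal cells. The study's methods name a tuba1a:GFP line for injured retinas, in which GFP marks MG that respond to the injury, and the table's column names refer to a control morpholino for the injured group. If so, uninjured libraries differ from the others in line and morpholino as well as in injury, and these cannot be told apart. How many fish stand behind a library is not given in the sources used here, so p-values measure only the spread between these libraries. Within a group the libraries are named a and b after the table's columns, and their values are given in that order.

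In the adult retina MG span all layers and support neurons. In zebrafish they answer an injury by reprogramming, entering the cell cycle and giving rise to progenitors that replace lost neurons. Apobec2 proteins belong to a family whose other members deaminate cytidine in DNA or RNA, and in zebrafish they have been linked to the injury response of MG. Microglia and macrophages are the phagocytes of the injured retina, and a sort for GFP can also collect other cells or their RNA.

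The targets gave no check of the labels. For apobec2a the table lists 0.39 and 0.38 FPKM in knockdown MG, against 0.25 and 0.51 FPKM in injured MG and 0.15 and 0.41 FPKM in uninjured MG. These values are below the level required here, and no row was matched to apobec2b by name. Morpholinos act on translation or splicing, so the RNA of a target can stay as it was. The row APOBEC2 (2 of 2), named after its values were seen and not matched to apobec2b, had 16.8 and 15.8 FPKM in knockdown MG, against 8.60 and 8.19 FPKM in injured MG and 1.12 and 0 FPKM in uninjured MG (log2 fold change 0.88 of knockdown over injured, SE 0.10, adjusted p = 0.0164 from limma). It shares a locus with 2 other symbols. The Pearson correlation was 0.988 between the knockdown libraries and 0.988 between the injured libraries on the log2(FPKM + 1) scale. This correlation is across genes, and genes are not independent replicates of a library. None is given between groups, so the values do not show that libraries were closer within a group than between groups. Summed FPKM were 946401 and 962887 in knockdown MG, against 1128958 and 1171101 in injured MG. Read depth cannot be had from FPKM and is not known.

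Knockdown MG held less RNA of many microglia and macrophage genes and of many genes of DNA replication and mitosis, and more RNA of several genes of glucose use and of the clock. The reprogramming factors ascl1a, sox2 and lin28a were not called. Of the 13418 genes, 1191 differed between knockdown and injured MG at an adjusted p under 0.05, with 394 higher and 797 lower in knockdown MG. These are 8.88% of the genes, 2.94% as higher and 5.94% as lower, and 9.37% were called over all symbols tested, 3.14% as higher and 6.24% as lower. The test was limma's moderated test on log2(FPKM + 1) with Benjamini-Hochberg adjustment over 16680 symbols, and genes past it are said to be called, or to have risen or fallen. The split depended on the scaling, since quantile normalization gave 558 higher and 665 lower genes. Genes called lower had a median log2 fold change of -1.06 and genes called higher one of 0.78, so the falls were the larger changes. A log2 fold change of at least 2 in size was seen in 120 of the genes that fell and in 6 of those that rose. Over all symbols tested the median log2 fold change was -0.02, and of the 13418 genes 7124 had a negative one. In all 1191 called genes the 2 knockdown values and the 2 injured values did not overlap, as in 63.4% of the 13418 genes and 61.8% of all symbols tested. A gene that reached 1 FPKM through 1 group alone had to differ. Such genes were 334 through the injured group, of which 200 were called, and 104 through the knockdown group, of which 27 were called, and the other 12980 genes held 964 of the calls.

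The number of calls rested on all 4 libraries. Without knockdown library a 169 genes were called, without knockdown library b 87, without injured library a 100 and without injured library b 86. In each of these fits 1 group has a single library, which is assumed to vary like the others. Of the 15 largest falls described next 7 were called in all 4 of these fits and 1 in none, and of the 15 largest rises 3 in all and 3 in none. In the gene lists that follow, these fits called at most 1 gene of a list, apart from the lists of microglia and macrophages, of phagocytosis and the lysosome, of chemokines, of complement and antigen presentation (3 to 6 genes), of filaments, annexins and galectins (2 to 7 genes) and of cones. For a single gene an exact permutation over 4 libraries gives no p below 0.333, and the adjusted p therefore leans on the spread that limma estimates from all genes together. On simulated data 200 of 16680 genes were changed in each case, all with a mean log2(FPKM + 1) above 2. The real spreads were shuffled over the genes, so a simulated spread did not follow the level of its gene. Limma recovered 0% of those changed by 1 on the log2 scale, 76.5% of those changed by 2 and 97% of those changed by 4. In the real data 1563 of 16680 symbols were called. The smallest log2 fold change of a called gene was 0.5 in size. The adjusted p depends on how many genes change and on how spread follows level. The simulated percentages therefore cannot give the share of real changes that was found. Genes are named by a rule given with the processing, and those outside it are said to be named after their values were seen.

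**Figure D1:**
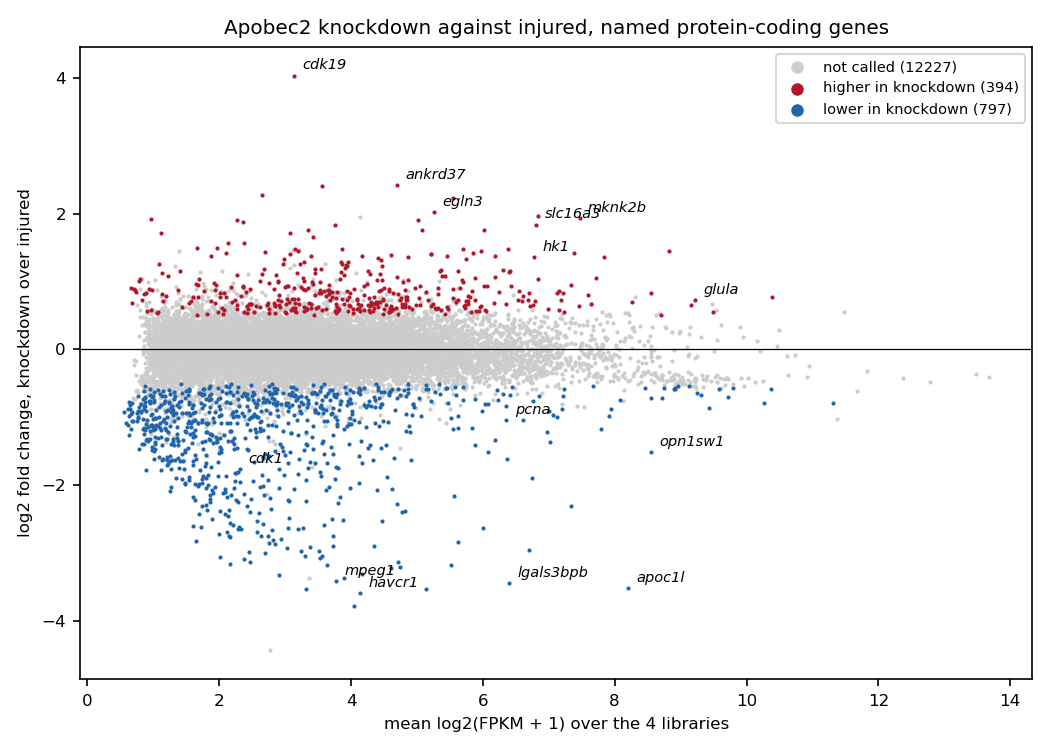
Each point is 1 of the 13418 named protein-coding genes, with its mean log2(FPKM + 1) over the 4 libraries on the x axis and the log2 fold change of knockdown over injured on the y axis. The 394 genes called higher are red and the 797 called lower are blue, and the deepest called fall, -3.78 for the c1qa,c1qc row, goes beyond all called rises but that of cdk19.

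The 15 largest falls, among called genes with a mean above 5 FPKM in a group, were led by genes known from microglia and macrophages. The row that c1qa and c1qc share, for chains of the complement protein C1q, had 4.39 and 2.66 FPKM in knockdown MG, against 65.6 and 54.9 FPKM in injured MG and 0.38 and 1.22 FPKM in uninjured MG (log2 fold change -3.78, SE 0.22, adjusted p = 0.00406 from limma). The receptor gene havcr1, whose mammalian product binds phosphatidylserine on dying cells, had 4.44 and 3.69 FPKM in knockdown MG, against 57.2 and 63.0 FPKM in injured MG and 0.82 and 1.08 FPKM in uninjured MG (log2 fold change -3.59, SE 0.13, adjusted p = 0.00262). It lies on chromosome 21 from 28496782 to 28504565 in the authors' table, which names no genome build. In both rows the knockdown values stood far below the injured ones and above the uninjured ones.

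The most abundant gene of the 15 was apoc1l, a small apolipoprotein, with 106 and 69.8 FPKM in knockdown MG, against 886 and 1123 FPKM in injured MG. A secreted galectin-3 binding protein gene, lgals3bpb, had 27.2 and 22.2 FPKM in knockdown MG, against 266 and 289 FPKM in injured MG. The galectin gene lgals9l1 had 11.6 and 7.52 FPKM in knockdown MG, against 103 and 138 FPKM in injured MG. By the rule that chose them, none of these pairs of groups overlapped. Each had a log2 fold change beyond -3, at -3.52 for apoc1l, -3.44 for lgals3bpb and -3.54 for lgals9l1.

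A solute carrier gene, slc43a3b, had 2.23 and 1.67 FPKM in knockdown MG, against 35.3 and 30.5 FPKM in injured MG. The macrophage perforin gene mpeg1 had a log2 fold change of -3.41, cd74a (the invariant chain of class II antigen presentation) of -3.36, PTPN6 (a tyrosine phosphatase of blood cells) of -3.33 and ctssb.2 (a cathepsin S) of -3.31. Next came arpc1b (an Arp2/3 subunit) at -3.21, CD68 (a lysosomal membrane protein of phagocytes) at -3.21, grn1 (a granulin) at -3.18, lcp1 (the actin bundler L-plastin) at -3.18 and MFAP4 (3 of 13) at -3.16. These are paralogs or members of families in part, and how reads were split between near-identical copies is not known. The MFAP4 (3 of 13) row, with 0.79 and 0.26 FPKM in knockdown MG, reached the level through injured MG alone. Uninjured MG differed for cd74a, which had 5.43 and 2.35 FPKM in knockdown MG, against 36.3 and 60.1 FPKM in injured MG and 40.3 and 38.63 FPKM in uninjured MG. Here the knockdown libraries were the low ones of all 3 groups.

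The 15 largest rises were smaller and of mixed kinds, apart from cdk19, a kinase of the Mediator complex. On chromosome 20 from 2908997 to 2982326 in the authors' table, cdk19 had 34.1 and 34.9 FPKM in knockdown MG, against 0.83 and 1.58 FPKM in injured MG and 2.17 and 26.7 FPKM in uninjured MG (log2 fold change 4.03, SE 0.19, adjusted p = 0.00311 from limma). The uninjured libraries disagreed with each other, so the level of this row varied widely within a group.

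The second largest rise was ankrd37, an ankyrin repeat gene known in mammals as a target of hypoxia-inducible factor (Hif). It had 54.6 and 63.6 FPKM in knockdown MG, against 10.9 and 9.55 FPKM in injured MG and 6.49 and 7.46 FPKM in uninjured MG (log2 fold change 2.42, SE 0.13, adjusted p = 0.00386), which is 5.77-fold higher in knockdown MG. A prolyl hydroxylase that marks Hif for breakdown is made by egln3, which had 74.7 and 78.3 FPKM in knockdown MG, against 22.4 and 14.4 FPKM in injured MG (log2 fold change 2.03, SE 0.22, adjusted p = 0.0137). The collagen prolyl hydroxylase gene p4ha1b had 23.3 and 25.8 FPKM in knockdown MG, against 6.84 and 5.61 FPKM in injured MG. In uninjured MG egln3 had 9.49 and 9.93 FPKM and p4ha1b 4.51 and 4.93 FPKM.

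Related genes were named after their values were seen. No list of Hif targets was counted, so the share of such genes that rose is not known. Another Hif prolyl hydroxylase, EGLN1 (2 of 2), had 12.9 and 15.7 FPKM in knockdown MG, against 3.77 and 3.54 FPKM in injured MG. The angiogenic factor vegfab had 17.9 and 18.2 FPKM in knockdown MG, against 5.14 and 4.92 FPKM in injured MG. Both were called, with log2 fold changes of 1.71 for EGLN1 (2 of 2) and 1.66 for vegfab.

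Regulators of translation and growth were also among the 15. A kinase of the cap-binding protein eIF4E is encoded by mknk2b, which had 319.9 and 372 FPKM in knockdown MG, against 89.8 and 89.3 FPKM in injured MG (log2 fold change 1.93, SE 0.12, adjusted p = 0.00445). The kinase that slows elongation factor 2, eef2k, had 54.1 and 69.2 FPKM in knockdown MG, against 14.6 and 20.5 FPKM in injured MG. An inhibitor of mTORC1, ddit4, had 58.2 and 65.8 FPKM in knockdown MG, against 19.5 and 12.7 FPKM in injured MG and 47.9 and 47.4 FPKM in uninjured MG. The injured libraries were the low ones of the 3 groups for ddit4.

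A co-chaperone of steroid receptors, fkbp5, had 201 and 249 FPKM in knockdown MG, against 53.3 and 60.5 FPKM in injured MG and 153 and 106 FPKM in uninjured MG (log2 fold change 1.96, SE 0.15, adjusted p = 0.00657). The gene hsd20b2, whose zebrafish product reduces cortisone, had 7.19 and 9.69 FPKM in knockdown MG, against 1.33 and 1.65 FPKM in injured MG. The Krüppel-like factor klf9, named after its values were seen, had 15.4 and 20.3 FPKM in knockdown MG, against 3.95 and 5.19 FPKM in injured MG. All 3 were called, and as in every gene called higher both knockdown values lay above both injured values. No list of genes that respond to steroids was counted.

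The cyclooxygenase gene ptgs2b, of prostaglandin synthesis, had 97.3 and 104 FPKM in knockdown MG, against 25.8 and 16.4 FPKM in injured MG. A retinoid X receptor row, RXRG (2 of 2),rxrga, had 24.3 and 28.3 FPKM in knockdown MG, against 3.82 and 4.50 FPKM in injured MG. The others of the 15 were PMM1 (a phosphomannomutase) with a log2 fold change of 2.27, SH3RF3 (a RING finger protein) with 1.87, the lactate transporter slc16a3 with 1.84 and the amino acid transporter slc43a2b with 1.76. By the rule that chose them, both knockdown values of each gene lay above both injured values.

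**Figure D2:**
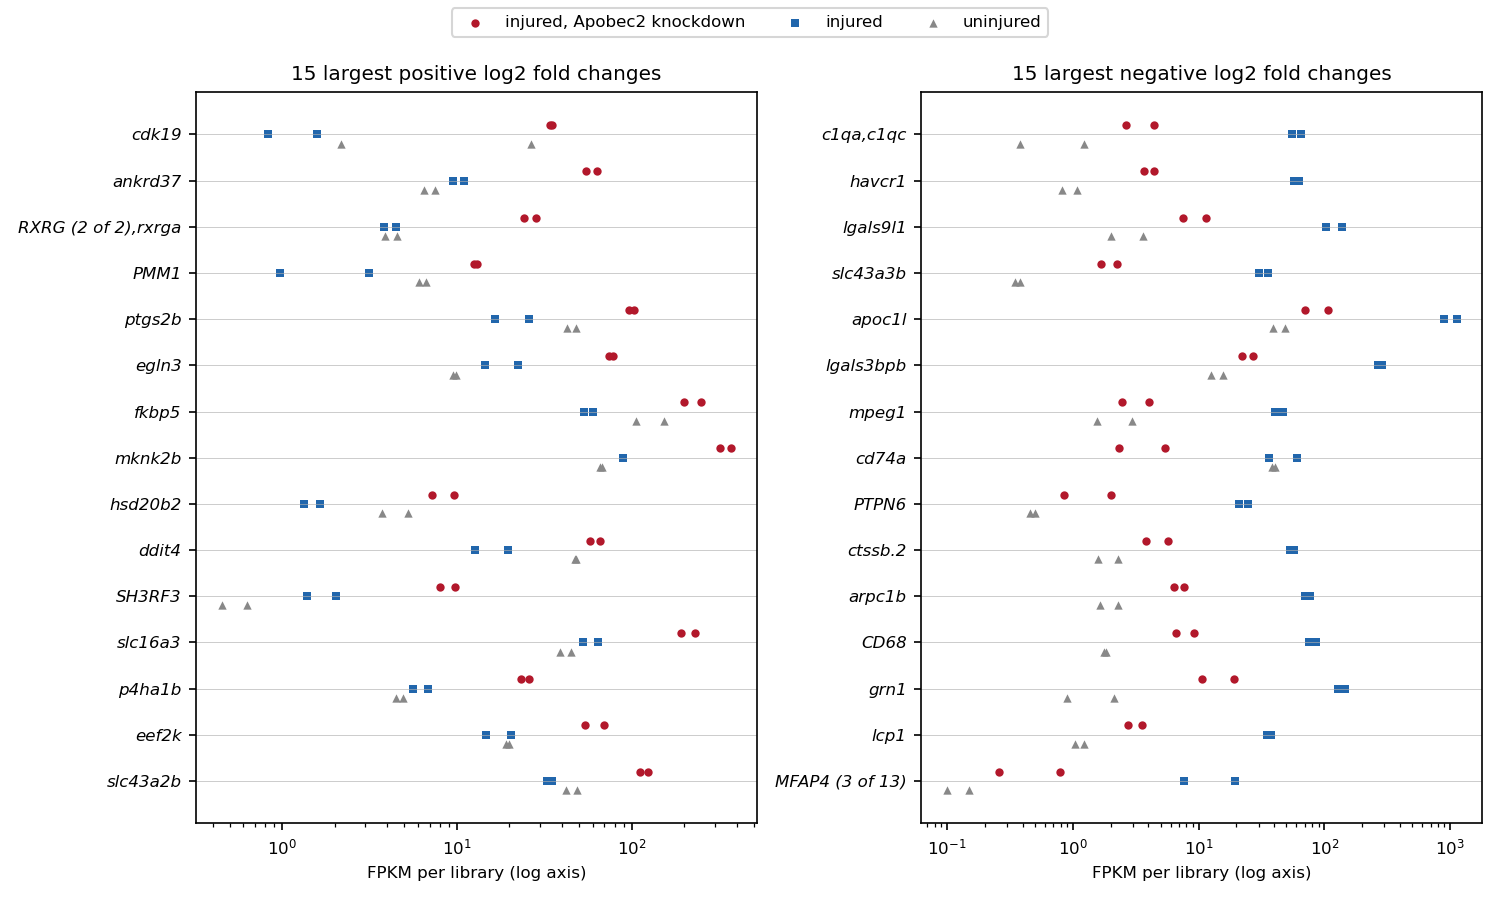
The FPKM of each library are plotted on a log axis for the 15 genes with the largest positive log2 fold changes and the 15 with the largest negative ones. Red circles are knockdown, blue squares injured and grey triangles uninjured libraries, 2 each, and cdk19 shows the uninjured pair of 2.17 and 26.7 FPKM between its injured and knockdown values.

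Genes were then read by 31 lists of processes and 15 of cell types. A list is described by how many of its tested genes were called and by its median log2 fold change, to be read against 6.24% called lower, 3.14% called higher and a median of -0.02 over all symbols tested. Counts at an unadjusted p under 0.05 are also given for some lists. With all libraries in the fit 4118 of the 13418 genes had such a p, so these counts are high for genes at large too. The matching number for fits with a library left out is not given here, so list counts from those fits have no background of their own. Lists were chosen with earlier results of these data known, so their counts are descriptions. In a sorted sample, fewer cells of a type and less RNA per cell cannot be told apart.

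**Figure D3:**
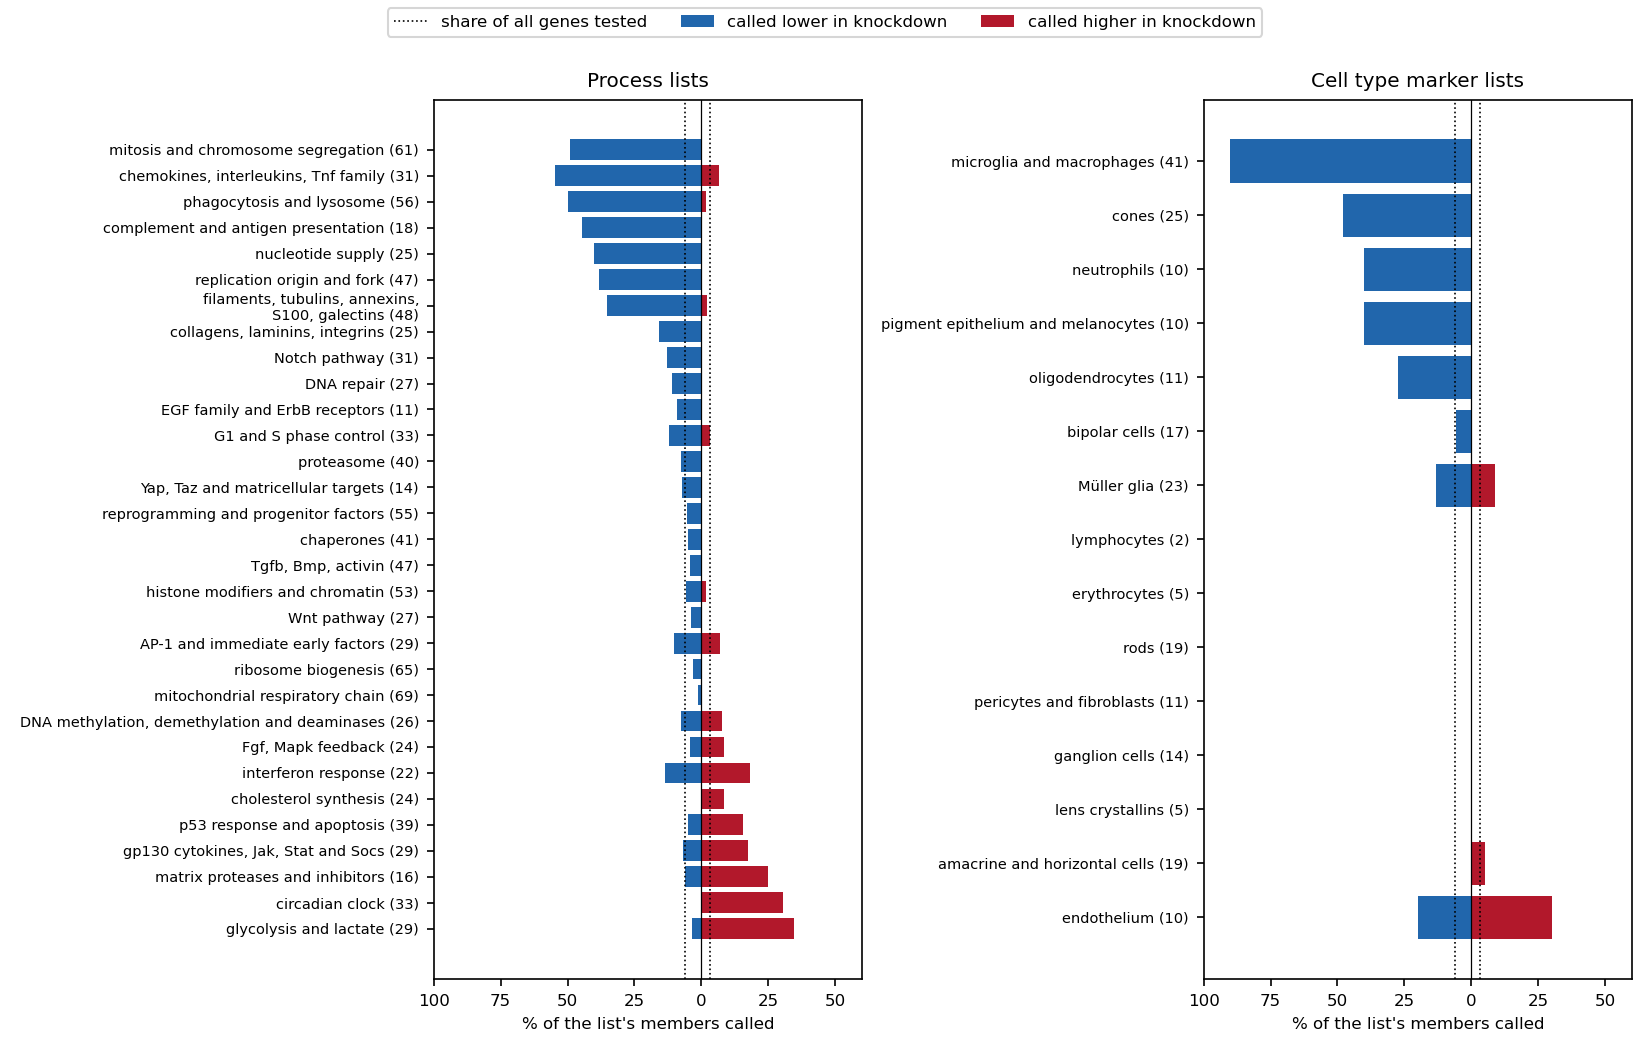
Bars give, for each list, the percentage of its tested genes called higher (red, to the right) and lower (blue, to the left) in knockdown against injured MG, with the number tested in brackets. Dotted lines mark 3.14% higher and 6.24% lower over all symbols tested, and the microglia and macrophage list reaches 90.2% lower while the glycolysis and lactate list reaches 34.5% higher.

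Microglia and macrophage genes were lower in knockdown MG. The table holds 43 of them and 41 were tested, of which 37 fell and 0 rose, with a median log2 fold change of -2.59. Through 1 group alone 8 reached the level, and 31 of the other 33 fell. The lowest log2 fold change of the list, -4.43, was that of a gene not called. The summed FPKM of the list was 366 and 288 in knockdown MG, against 2074 and 2139 in injured MG and 271 and 249 in uninjured MG. No gene of the list was listed at 0 in both knockdown libraries, so this RNA was lower but present. With 1 library left out 15 to 29 genes were called, and the median stayed between -2.73 and -2.43.

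A GTPase gene of blood cells, rac2, had 2.72 and 3.30 FPKM in knockdown MG, against 33.1 and 32.0 FPKM in injured MG and 1.31 and 0.53 FPKM in uninjured MG (log2 fold change -3.07, SE 0.12, adjusted p = 0.00268 from limma). The macrophage growth factor receptor csf1ra, named after its values were seen, had 2.42 and 0.95 FPKM in knockdown MG, against 16.99 and 15.6 FPKM in injured MG. A purine receptor of resting microglia, P2RY12, also named after its values were seen, averaged (± SD, n = 2 each) 0.79 ± 0.18 FPKM in knockdown MG and 14.3 ± 1.79 FPKM in injured MG. It reached the level through injured MG alone. The falls differed in size within the list, since the NADPH oxidase subunit gene cybb, named after its values were seen, had 4.61 and 5.42 FPKM in knockdown MG, against 10.3 and 10.3 FPKM in injured MG (log2 fold change -0.91, SE 0.12, adjusted p = 0.0194).

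Many genes of phagocytosis and the lysosome fell too. Of 56 tested, 28 fell and 1 rose, with a median of -0.60, and of the 51 that are on neither the microglia nor the neutrophil list 23 fell. Among the 53 that did not reach the level through 1 group alone 27 fell. The cathepsin C gene ctsc had 8.59 and 7.98 FPKM in knockdown MG, against 52.7 and 52.1 FPKM in injured MG. The cathepsin Z gene ctsz had 11.7 and 10.1 FPKM in knockdown MG, against 58.8 and 63.9 FPKM in injured MG. A progranulin gene, grna, had 8.59 and 7.07 FPKM in knockdown MG, against 79.5 and 73.7 FPKM in injured MG. In uninjured MG their levels were lower than in knockdown MG, with 4.54 and 3.17 FPKM for ctsc, 3.99 and 2.95 FPKM for ctsz and 4.22 and 3.19 FPKM for grna.

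Other lysosomal genes were named after their values were seen. The cholesterol carrier gene npc2 had 77.3 and 66.1 FPKM in knockdown MG, against 343 and 372 FPKM in injured MG. The cathepsin D gene ctsd had 78.0 and 82.0 FPKM in knockdown MG, against 220.2 and 195 FPKM in injured MG. Their log2 fold changes were -2.30 for npc2 and -1.36 for ctsd, both called. The 1 gene of the list that rose was the cholesterol exporter abca1a, named after its values were seen, with 66.5 and 68.9 FPKM in knockdown MG, against 41.8 and 42.7 FPKM in injured MG. The summed RNA of the microglia and macrophage list moved in the same direction as the falls, and its part in them was not tested. In fits without 1 library 10 to 16 genes of the lysosome list were called.

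Of 18 complement and antigen presentation genes tested 8 fell and 0 rose, 7 of the 17 that did not reach the level through 1 group alone fell, and 2 of the 12 on neither the microglia nor the neutrophil list fell. The invariant chain gene cd74b had 1.69 and 1.60 FPKM in knockdown MG, against 11.5 and 14.9 FPKM in injured MG and 21.6 and 15.9 FPKM in uninjured MG. A cathepsin S gene, ctssb.1, had 3.58 and 2.62 FPKM in knockdown MG, against 35.5 and 27.0 FPKM in injured MG. As for cd74a, the uninjured libraries held more cd74b RNA than the knockdown libraries. Leaving out each library in turn gave 3 to 6 called genes.

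Among chemokines, interleukins, the Tnf family and their receptors, 17 of 31 tested genes fell and 2 rose, and 8 of the 31 reached the level through 1 group alone, while 10 of the other 23 fell. The tumour necrosis factor gene tnfb had 0.16 and 0.20 FPKM in knockdown MG, against 6.25 and 8.62 FPKM in injured MG and 0.19 and 0.05 FPKM in uninjured MG (log2 fold change -2.82, SE 0.17, adjusted p = 0.00406 from limma). A chemokine receptor gene, ccr12.3, had 1.94 and 1.42 FPKM in knockdown MG, against 17.8 and 17.7 FPKM in injured MG. Another, ccr9a, averaged (± SD, n = 2 each) 1.39 ± 0.13 FPKM in knockdown MG and 15.04 ± 0.54 FPKM in injured MG. For tnfb the knockdown and uninjured values overlapped. Since tnfb reached the level through injured MG alone, it had to differ.

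The gene of the Tnf ligand TWEAK, tnfsf12, had 1.62 and 1.46 FPKM in knockdown MG, against 8.25 and 9.37 FPKM in injured MG. Interleukin 1 beta, il1b, named after its values were seen, had 1.74 and 1.11 FPKM in knockdown MG, against 4.34 and 7.76 FPKM in injured MG (log2 fold change -1.51, SE 0.28, adjusted p = 0.0451). The 2 genes that rose were also named after their values were seen. One was il15, a cytokine for natural killer and T cells, with 9.35 and 10.6 FPKM in knockdown MG, against 4.26 and 5.38 FPKM in injured MG. The other was the chemokine cxcl14, with 64.8 and 69.3 FPKM in knockdown MG, against 46.0 and 45.03 FPKM in injured MG. Of the 26 genes on neither the microglia nor the neutrophil list 12 fell and 2 rose, and with 1 library left out 4 to 8 genes of the whole list were called.

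The table holds 16 neutrophil genes and 10 were tested, of which 4 fell and 0 rose. A positive log2 fold change was seen in 2 of the 10, with 0.37 as the highest. The list also names mpx, lyz, npsn and lect2l, which were not among those that fell. The granule proteoglycan gene srgn had 5.30 and 4.73 FPKM in knockdown MG, against 29.6 and 20.01 FPKM in injured MG. A helper of leukotriene synthesis, alox5ap, had 1.02 and 0.39 FPKM in knockdown MG, against 6.73 and 4.60 FPKM in injured MG. The granulocyte growth factor receptor csf3r had 0.71 and 0.24 FPKM in knockdown MG, against 2.46 and 2.82 FPKM in injured MG, and nccrp1 fell with a log2 fold change of -0.88. Since csf3r passed through injured MG alone, 3 of the other 9 genes fell. The gelatinase mmp9, made by neutrophils and by injured MG, was not called and had 84.5 and 61.4 FPKM in knockdown MG, against 122 and 107 FPKM in injured MG (log2 fold change -0.66, SE 0.19, adjusted p = 0.102). Summed over the list, FPKM were 132 and 98.5 in knockdown MG, against 208 and 173 in injured MG. Fits to 3 libraries called at most 1 gene of the list, and 6 to 7 then had an unadjusted p under 0.05.

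Intermediate filaments, tubulins, annexins, S100 proteins and galectins formed 1 list, in which 17 of 48 tested genes fell and 1 rose. The galectin gene lgals2a had 26.5 and 22.9 FPKM in knockdown MG, against 154 and 164 FPKM in injured MG (log2 fold change -2.64, SE 0.12, adjusted p = 0.0031). An annexin gene, anxa2a, whose product binds membranes in the presence of calcium, had 6.35 and 5.72 FPKM in knockdown MG, against 18.1 and 20.8 FPKM in injured MG. The keratin gene krt18, named after its values were seen, rose and had 27.5 and 28.5 FPKM in knockdown MG, against 16.7 and 18.3 FPKM in injured MG. Not called was tuba1l2, the tubulin row to which tuba1a was matched, with 228 and 218 FPKM in knockdown MG, against 304 and 274 FPKM in injured MG. Fits to 3 libraries called 2 to 7 genes of the list.

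**Figure D4:**
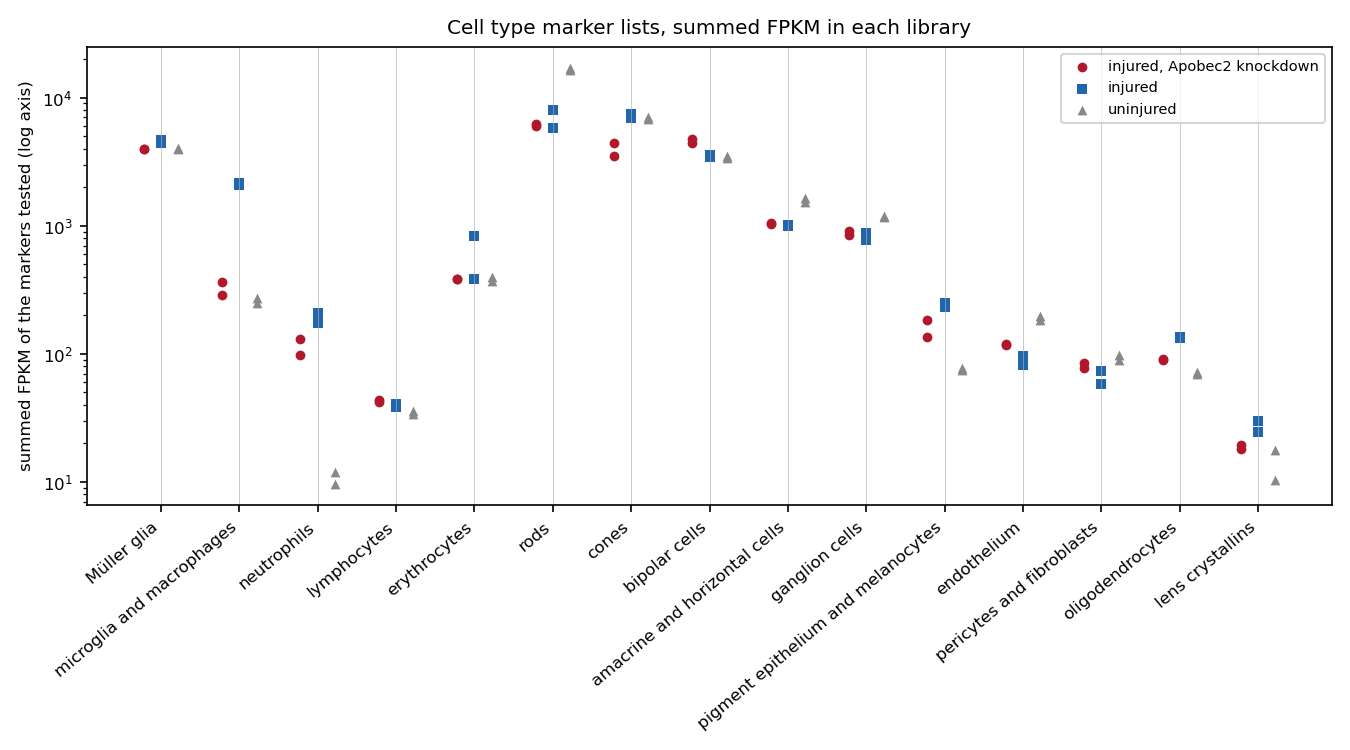
The summed FPKM of the tested genes of each cell type list are plotted on a log axis for every library, with knockdown (red circles), injured (blue squares) and uninjured (grey triangles). The microglia and macrophage list stands apart, with knockdown libraries at 366 and 288 against injured libraries at 2074 and 2139, and the erythrocyte list separates the 2 injured libraries from each other.

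Genes of DNA replication and division were lower in knockdown MG. Of 47 replication origin and fork genes tested, 18 fell and 0 rose, 46 had a negative log2 fold change and the median was -0.62. Of the 45 that did not pass through 1 group alone 17 fell. The sliding clamp gene pcna had 60.8 and 51.8 FPKM in knockdown MG, against 110.2 and 123 FPKM in injured MG and 23.9 and 23.8 FPKM in uninjured MG (log2 fold change -1.04, SE 0.13, adjusted p = 0.0194 from limma). A subunit of the replicative helicase, mcm6, had 5.25 and 4.54 FPKM in knockdown MG, against 12.9 and 13.4 FPKM in injured MG and 0.41 and 0.37 FPKM in uninjured MG (log2 fold change -1.27, SE 0.11, adjusted p = 0.00925). For both genes the knockdown values lay between the injured and the uninjured ones without overlap.

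Other helicase subunits, named after their values were seen, fell as well, with log2 fold changes of -0.96 for mcm3, -0.95 for mcm4, -1.06 for mcm5 and -0.71 for mcm7. The histone chaperone gene chaf1b had 1.58 and 1.30 FPKM in knockdown MG, against 4.24 and 4.11 FPKM in injured MG. A part of the helicase complex, gins2, averaged (± SD, n = 2 each) 3.13 ± 0.04 FPKM in knockdown MG and 6.98 ± 0.13 FPKM in injured MG. The origin recognition gene orc6 had 2.50 and 2.48 FPKM in knockdown MG, against 5.58 and 5.52 FPKM in injured MG.

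Of 25 genes of nucleotide supply tested 10 fell and 0 rose, with a median of -0.56. The small subunit of ribonucleotide reductase, rrm2, had 5.19 and 5.63 FPKM in knockdown MG, against 15.5 and 18.1 FPKM in injured MG. Its large subunit, rrm1, had 7.65 and 7.44 FPKM in knockdown MG, against 18.1 and 20.9 FPKM in injured MG. Thymidylate synthase, tyms, had 4.14 and 3.87 FPKM in knockdown MG, against 11.6 and 15.10 FPKM in injured MG (log2 fold change -1.51, SE 0.15, adjusted p = 0.0121). A thymidine kinase row, TK1 (1 of 2),tk1, had a log2 fold change of -1.35. All 4 were called, and as in every gene called lower both knockdown values lay below both injured values.

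Of 61 mitosis and chromosome segregation genes tested 30 fell and 0 rose, all 61 had a negative log2 fold change, and the median was -0.81. Through 1 group alone 17 of them reached the level, and of the other 44 genes 19 fell. The kinase of mitotic entry, cdk1, had 1.36 and 2.07 FPKM in knockdown MG, against 7.22 and 9.21 FPKM in injured MG and 0.54 and 0.28 FPKM in uninjured MG (log2 fold change -1.77, SE 0.19, adjusted p = 0.013). A condensin subunit, ncapg, had 0.88 and 0.86 FPKM in knockdown MG, against 3.55 and 4.22 FPKM in injured MG, and reached the level through injured MG alone. The activator of the anaphase-promoting complex, cdc20, had 1.19 and 1.22 FPKM in knockdown MG, against 3.88 and 3.44 FPKM in injured MG. Also named by the rule was cdca7a, a partner of the remodeller Hells, with a log2 fold change of -1.04.

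The cyclin B gene ccnb1 and the topoisomerase gene top2a, named after their values were seen, had log2 fold changes of -1.54 for ccnb1 and -1.36 for top2a. Ki-67, MKI67, was not called and had 2.02 and 2.31 FPKM in knockdown MG, against 3.26 and 4.06 FPKM in injured MG and 0.43 and 0.59 FPKM in uninjured MG (log2 fold change -0.55, SE 0.13, adjusted p = 0.074). Its 2 knockdown values lay below both injured values, but groups did not overlap in 63.4% of the 13418 genes, so this adds little.

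Of 33 G1 and S phase control genes tested 4 fell and 1 rose. The S phase kinase cdk2 had 3.36 and 2.66 FPKM in knockdown MG, against 6.28 and 6.59 FPKM in injured MG. An atypical E2F that represses E2F targets, e2f8, had 0.38 and 0.60 FPKM in knockdown MG, against 2.57 and 3.24 FPKM in injured MG and reached the level through injured MG alone, so that 3 of the 31 genes not in that position fell. The G1 kinase cdk6 had 1.02 and 0.83 FPKM in knockdown MG, against 1.99 and 1.84 FPKM in injured MG. The gene that rose was the Cdk inhibitor p21, cdkn1a, with 35.0 and 33.4 FPKM in knockdown MG, against 20.96 and 21.6 FPKM in injured MG and 1.81 and 1.52 FPKM in uninjured MG (log2 fold change 0.66, SE 0.10, adjusted p = 0.0298). In uninjured MG cdkn1a was thus lower than in either injured group.

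With any 1 library left out limma called 0 genes of the replication, nucleotide supply, mitosis and G1 and S phase lists. At an unadjusted p under 0.05 the replication list then held 25 to 31 genes and the mitosis list 39 to 43. The median of the replication list stayed between -0.70 and -0.61, and that of the mitosis list between -0.87 and -0.74. Microglia and macrophage genes moved in the same direction, and the part of those cells in the fall of cell cycle genes was not tested.

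Of 27 DNA repair genes tested 3 fell and 0 rose. The mismatch repair gene msh6 had 3.85 and 4.92 FPKM in knockdown MG, against 8.41 and 8.09 FPKM in injured MG. The end joining gene xrcc5 had 3.25 and 3.62 FPKM in knockdown MG, against 6.41 and 5.92 FPKM in injured MG. The third was uhrf1, which is described with DNA methylation.

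In the list of growth arrest and apoptosis, 6 of 39 tested genes rose and 2 fell, with a median of 0.23. The lowest log2 fold change of the list, -3.375, was that of a gene not called. An antiapoptotic relative of Bcl2, mcl1b, had 161 and 164 FPKM in knockdown MG, against 79.5 and 77.7 FPKM in injured MG and 74.3 and 68.9 FPKM in uninjured MG (log2 fold change 1.04, SE 0.10, adjusted p = 0.0103). The Forkhead factor foxo3b had 72.6 and 79.8 FPKM in knockdown MG, against 40.2 and 42.9 FPKM in injured MG. Named after their values were seen, the ribosomal protein S27-like gene RPS27L, the proapoptotic bbc3 and the cyclin G gene ccng1 had log2 fold changes of 1.14 for RPS27L, 0.67 for bbc3 and 0.58 for ccng1. Among the genes that fell, the Tnf receptor tnfrsf1a had 6.18 and 5.53 FPKM in knockdown MG, against 12.9 and 11.3 FPKM in injured MG.

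The ubiquitin ligase gene mdm2 was not called and had 60.7 and 56.7 FPKM in knockdown MG, against 31.3 and 40.1 FPKM in injured MG (log2 fold change 0.71, SE 0.15, adjusted p = 0.0594). Each fit to 3 libraries called at most 1 gene of the list. With the table's index as a block 3 genes of the list rose and 1 fell.

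Factors of reprogramming and of retinal progenitors were mostly not called. Of 66 in the table, 55 were tested, of which 3 fell and 0 rose, with a median log2 fold change of -0.11. The proneural factor ascl1a, which injured MG need to reprogram, had 25.4 and 21.5 FPKM in knockdown MG, against 22.9 and 27.2 FPKM in injured MG and 0.24 and 1.13 FPKM in uninjured MG (log2 fold change -0.09, SE 0.15, adjusted p = 0.714). Its knockdown and injured values overlapped, and both groups lay far above the uninjured one. The progenitor factor sox2 averaged 51.4 ± 1.65 FPKM in knockdown MG, 54.9 ± 0.08 FPKM in injured MG and 22.5 ± 3.18 FPKM in uninjured MG (SD, n = 2 each; log2 fold change -0.09, SE 0.10, adjusted p = 0.571 from limma). Its row shares a locus with another symbol.

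The let-7 binding protein gene lin28a had 4.89 and 4.94 FPKM in knockdown MG, against 4.72 and 13.1 FPKM in injured MG and 0 and 0.15 FPKM in uninjured MG (log2 fold change -0.60, SE 0.44, adjusted p = 0.41). Its injured libraries disagreed, and injured library b alone stood above the knockdown libraries. Without injured library b its log2 fold change was 0.05.

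The 3 genes that fell were olig2, foxn4 and her15.1. The progenitor and oligodendrocyte factor olig2 had 2.50 and 2.15 FPKM in knockdown MG, against 5.57 and 6.55 FPKM in injured MG (log2 fold change -1.08, SE 0.13, adjusted p = 0.0164). The early progenitor factor foxn4 had 1.03 and 0.85 FPKM in knockdown MG, against 2.14 and 2.70 FPKM in injured MG. The Notch target her15.1, which has near-identical copies, had 7.47 and 7.86 FPKM in knockdown MG, against 14.8 and 16.3 FPKM in injured MG. Fits to 3 libraries called 0 genes of this list, and 4 to 9 then had an unadjusted p under 0.05.

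In the Notch list 4 of 31 tested genes fell and 0 rose. The Notch glycosyltransferase gene mfng averaged (± SD, n = 2 each) 0.98 ± 0.12 FPKM in knockdown MG and 11.2 ± 0.28 FPKM in injured MG (log2 fold change -2.62, SE 0.11, adjusted p = 0.00268) and was still called with each library left out. The receptor gene notch2 had 1.32 and 0.90 FPKM in knockdown MG, against 3.31 and 2.92 FPKM in injured MG. A Notch target, her12, had 2.34 and 1.79 FPKM in knockdown MG, against 4.18 and 3.95 FPKM in injured MG and 10.6 and 8.32 FPKM in uninjured MG. The other 3 lost their call when a library was left out.

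In the list of gp130 cytokines, Jak, Stat and Socs, 5 of 29 tested genes rose and 2 fell, with a median of 0.25. The leptin gene lepb, which injured tissue of zebrafish induces, had 261 and 245 FPKM in knockdown MG, against 142 and 148 FPKM in injured MG and 1.96 and 1.67 FPKM in uninjured MG (log2 fold change 0.80, SE 0.10, adjusted p = 0.0203 from limma). A feedback inhibitor of Jak kinases, socs1, had 9.41 and 9.59 FPKM in knockdown MG, against 4.17 and 4.37 FPKM in injured MG. The transcription factor gene stat2 had 19.1 and 22.6 FPKM in knockdown MG, against 8.85 and 9.50 FPKM in injured MG. The leptin receptor lepr and the Lif receptor lifra, named after their values were seen, had log2 fold changes of 0.68 for lepr and 0.66 for lifra.

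Central members of this route were not called. The transcription factor stat3 had 42.6 and 48.4 FPKM in knockdown MG, against 34.8 and 36.7 FPKM in injured MG (log2 fold change 0.34, SE 0.12, adjusted p = 0.139). Its feedback inhibitor socs3a had 84.4 and 75.8 FPKM in knockdown MG, against 90.9 and 85.4 FPKM in injured MG and 5.50 and 3.59 FPKM in uninjured MG (log2 fold change -0.14, SE 0.11, adjusted p = 0.462). Both groups of injured retinas held far more socs3a RNA than the uninjured one. The genes that fell were jak3, a kinase of lymphoid cytokine receptors, which reached the level through injured MG alone, with 0.12 and 0.10 FPKM in knockdown MG, against 1.58 and 1.07 FPKM in injured MG, and m17, an Il6-type cytokine named after its values were seen, with a log2 fold change of -1.86. Without any 1 library at most 1 gene of the list was called.

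Among AP-1 and immediate early factors 2 of 29 tested genes rose and 3 fell, 1 of the falls in a gene that passed through 1 group alone. The AP-1 subunit fosl1a had 64.2 and 59.6 FPKM in knockdown MG, against 25.7 and 31.9 FPKM in injured MG and 0.67 and 0.47 FPKM in uninjured MG (log2 fold change 1.08, SE 0.14, adjusted p = 0.0204). A C/EBP factor, cebpd, had 31.9 and 35.3 FPKM in knockdown MG, against 12.1 and 13.6 FPKM in injured MG. Of the genes that fell, cebpa, a factor of myeloid cells in mammals, had 3.18 and 3.34 FPKM in knockdown MG, against 11.2 and 10.8 FPKM in injured MG. The other named one, mafba, which acts in macrophages, had 12.4 and 9.83 FPKM in knockdown MG, against 26.3 and 22.5 FPKM in injured MG.

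Of 11 EGF family and ErbB genes tested 1 fell and 0 rose. It was hbegfb, a heparin-binding EGF ligand, with 1.21 and 1.43 FPKM in knockdown MG, against 6.27 and 3.98 FPKM in injured MG. Its paralog hbegfa, the ligand that injured MG secrete, was not called and had 43.8 and 37.5 FPKM in knockdown MG, against 28.5 and 28.3 FPKM in injured MG and 0.31 and 0.57 FPKM in uninjured MG (log2 fold change 0.50, SE 0.12, adjusted p = 0.0741). For hbegfa both knockdown values lay above both injured ones, a lack of overlap seen in 63.4% of the 13418 genes.

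Of 24 Fgf and Mapk feedback genes tested 2 rose and 1 fell. The Mapk phosphatases dusp4 and dusp5 rose, with log2 fold changes of 0.56 for dusp4 and 0.56 for dusp5. An Ets factor that responds to Fgf, pea3, had 0.93 and 1.53 FPKM in knockdown MG, against 8.04 and 10.7 FPKM in injured MG (log2 fold change -2.22, SE 0.20, adjusted p = 0.00925).

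Of 27 Wnt pathway genes tested 1 was called, the Frizzled receptor fzd2, with 2.43 and 1.72 FPKM in knockdown MG, against 13.96 and 15.4 FPKM in injured MG and 1.62 and 1.33 FPKM in uninjured MG (log2 fold change -2.36, SE 0.15, adjusted p = 0.00475). It was called without either knockdown library and not called without either injured library. Of 14 Yap and Taz genes tested 1 was called, the Hippo adaptor mob1a, with 10.4 and 10.6 FPKM in knockdown MG, against 22.2 and 23.1 FPKM in injured MG. The mob1a row shares a locus with 9 other symbols.

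Of 47 Tgfb, Bmp and activin genes tested 2 fell and 0 rose. The ligand gene tgfb1b fell, with a log2 fold change of -1.47 (SE 0.11, limma adjusted p = 0.00573), and the matrix gene tgfbi, a Tgfb target, had 2.12 and 1.81 FPKM in knockdown MG, against 3.64 and 4.59 FPKM in injured MG. The ligand tgfb1a, a paralog, averaged (± SD, n = 2 each) 3.31 ± 0.02 FPKM in knockdown MG and 2.04 ± 0.77 FPKM in injured MG and was not called (log2 fold change 0.53, SE 0.20, adjusted p = 0.159). A further ligand, tgfb2, had 11.5 and 14.2 FPKM in knockdown MG, against 11.13 and 11.3 FPKM in injured MG and 2.84 and 2.47 FPKM in uninjured MG. The ligand tgfb3 had 13.3 and 16.2 FPKM in knockdown MG, against 16.4 and 18.5 FPKM in injured MG and 75.1 and 78.9 FPKM in uninjured MG. The log2 fold changes were 0.17 for tgfb2 and -0.23 for tgfb3, and neither was called. Both groups of injured retinas lay above uninjured MG for tgfb2 and below it for tgfb3.

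Of 16 matrix proteases and inhibitors tested 4 rose and 1 fell. A metalloproteinase inhibitor, timp2b, had 75.3 and 67.1 FPKM in knockdown MG, against 45.3 and 36.9 FPKM in injured MG and 1.58 and 1.51 FPKM in uninjured MG. The urokinase gene plaua had 3.85 and 3.55 FPKM in knockdown MG, against 1.73 and 2.04 FPKM in injured MG. A metalloproteinase gene, mmp24, had 9.67 and 9.34 FPKM in knockdown MG, against 5.60 and 4.99 FPKM in injured MG. In the other direction, the membrane-bound mmp14b had 4.51 and 3.36 FPKM in knockdown MG, against 10.5 and 9.05 FPKM in injured MG.

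Of 25 collagens, laminins, integrins and related genes tested 4 fell and 0 rose. The leukocyte integrin ITGB2, also on the microglia and macrophage list, had 2.69 and 2.39 FPKM in knockdown MG, against 18.1 and 19.4 FPKM in injured MG (log2 fold change -2.48, SE 0.11, adjusted p = 0.0029). Fibronectin, fn1, had 1.46 and 1.46 FPKM in knockdown MG, against 5.41 and 4.95 FPKM in injured MG. Versican and perlecan genes, vcanb and hspg2, had log2 fold changes of -1.25 for vcanb and -0.82 for hspg2.

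Several genes of glucose use rose. Of 29 glycolysis and lactate genes tested 10 rose and 1 fell, with a median log2 fold change of 0.50. A hexokinase gene, hk1, had 168 and 181 FPKM in knockdown MG, against 68.6 and 65.6 FPKM in injured MG and 63.0 and 64.7 FPKM in uninjured MG (log2 fold change 1.36, SE 0.11, adjusted p = 0.00647 from limma). The glucose transporter slc2a3 had 96.0 and 109.7 FPKM in knockdown MG, against 38.4 and 35.22 FPKM in injured MG and 31.7 and 31.9 FPKM in uninjured MG. Another glucose transporter, slc2a1b, had 30.4 and 35.16 FPKM in knockdown MG, against 11.9 and 12.7 FPKM in injured MG and 19.1 and 20.1 FPKM in uninjured MG. The lactate exporter slc16a3 had 192 and 231 FPKM in knockdown MG, against 64.3 and 52.7 FPKM in injured MG and 39.17 and 44.9 FPKM in uninjured MG (log2 fold change 1.84, SE 0.16, adjusted p = 0.00867). In all 4 genes knockdown MG stood above both other groups.

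Others were named after their values were seen. An enzyme that makes an activator of phosphofructokinase, pfkfb3, had 296 and 305 FPKM in knockdown MG, against 138 and 151 FPKM in injured MG and 104 and 111 FPKM in uninjured MG. A related gene, pfkfb4l, had 55.4 and 63.6 FPKM in knockdown MG, against 24.2 and 19.8 FPKM in injured MG and 61.4 and 52.85 FPKM in uninjured MG. For pfkfb4l the uninjured and knockdown values thus overlapped, and the injured libraries were the low ones. Lactate dehydrogenase A, ldha, had 485 and 513 FPKM in knockdown MG, against 293 and 266 FPKM in injured MG and 251 and 244 FPKM in uninjured MG. The Hif alpha gene hif1al, also on this list, had a log2 fold change of 1.38. The 1 gene of the list that fell was the muscle enolase eno3, with 10.5 and 9.74 FPKM in knockdown MG, against 20.98 and 21.8 FPKM in injured MG. Quantile normalization called 16 genes of the list higher, with a median of 0.68. With 1 library left out at most 1 gene was called, and the median lay between 0.37 and 0.54.

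Of 33 circadian clock genes tested 10 rose and 0 fell, with a median log2 fold change of 0.45. The Rev-erb repressor nr1d2a had 123 and 131 FPKM in knockdown MG, against 71.3 and 75.2 FPKM in injured MG and 64.8 and 58.9 FPKM in uninjured MG (log2 fold change 0.79, SE 0.10, adjusted p = 0.0208). A repressor of D-box genes, nfil3-5, had 131 and 144 FPKM in knockdown MG, against 71.9 and 82.0 FPKM in injured MG. The cryptochrome cry1b had 19.8 and 21.6 FPKM in knockdown MG, against 12.9 and 12.32 FPKM in injured MG and 20.2 and 17.7 FPKM in uninjured MG. Another cryptochrome, cry3, had 46.8 and 47.4 FPKM in knockdown MG, against 30.8 and 30.1 FPKM in injured MG and 23.9 and 20.9 FPKM in uninjured MG. For cry1b the injured libraries were the low ones of the 3 groups, and for nr1d2a and cry3 the knockdown libraries were the high ones.

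The E-box repressors bhlhe40 and bhlhe41, named after their values were seen, had log2 fold changes of 0.50 for bhlhe40 and 0.64 for bhlhe41. With a pseudocount of 0.1 limma called 2 clock genes, with the table's index as a block 4, and with any 1 library left out 0, while 16 to 19 had an unadjusted p under 0.05 in those fits. The median then lay between 0.42 and 0.48. The hour at which retinas were collected is not given in the sources used here, and the time of day cannot be told apart from the knockdown.

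**Figure D5:**
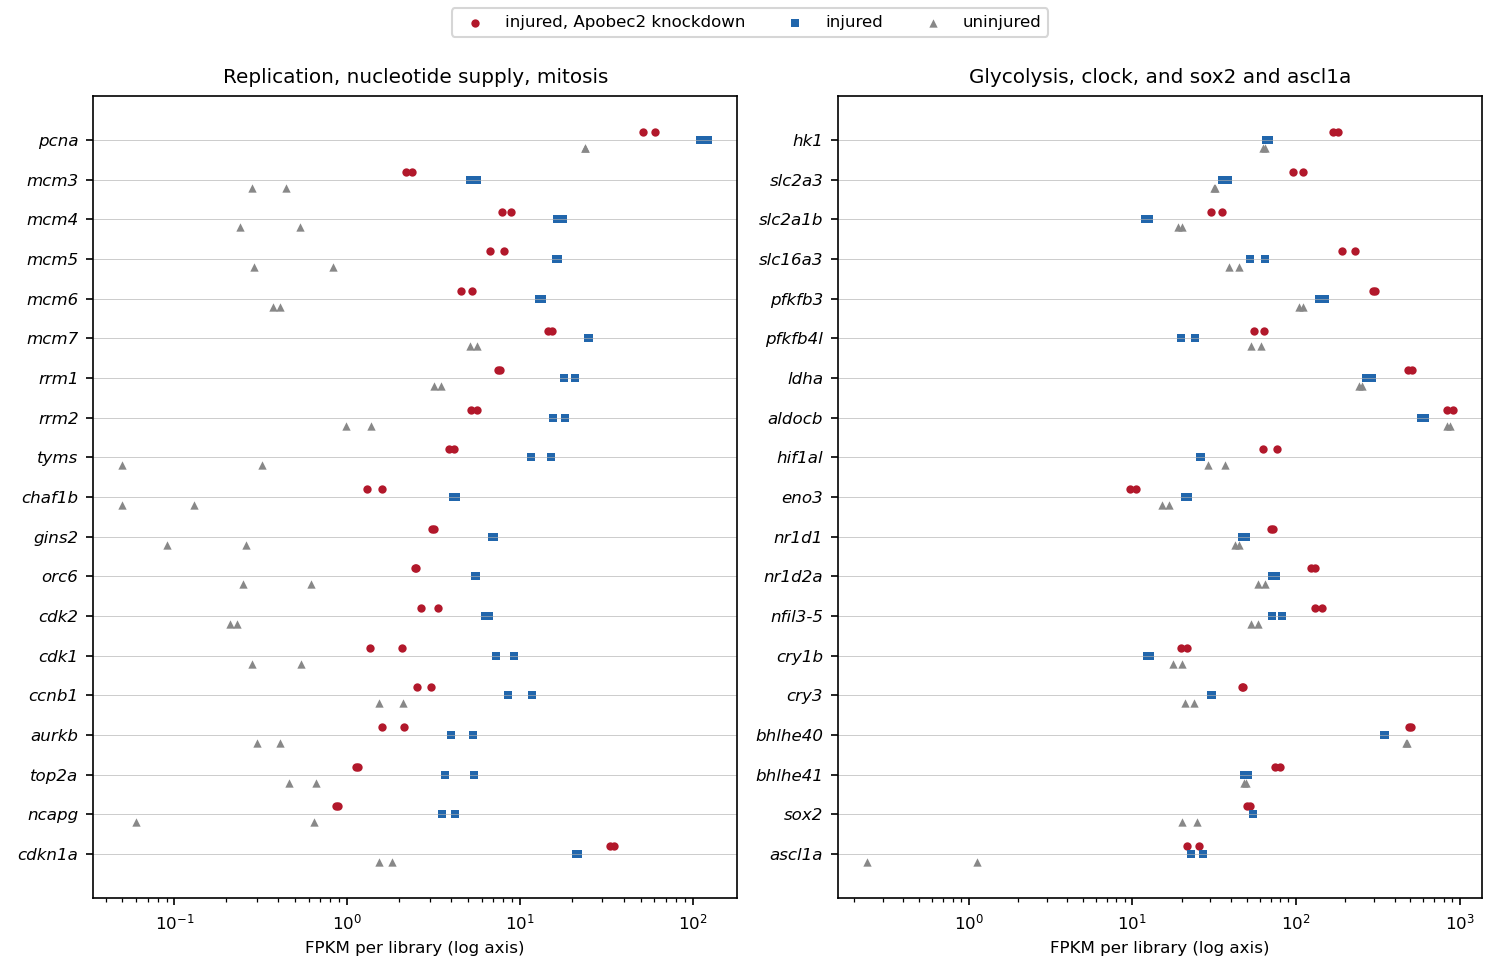
The FPKM of each library are plotted on a log axis for genes of replication, nucleotide supply and mitosis with cdkn1a, and for genes of glycolysis and the clock with sox2 and ascl1a. Red circles are knockdown, blue squares injured and grey triangles uninjured libraries, and a value listed at 0 is drawn at 0.05. Knockdown values of pcna and mcm6 lie between the injured and the uninjured ones, and those of hk1 and slc16a3 lie above both.

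Housekeeping lists shifted by little and in 1 direction. Of 65 ribosome biogenesis genes tested 62 had a negative log2 fold change and 2 fell, with a median of -0.32. In the mitochondrial respiratory chain 67 of 69 were negative and 1 fell, with a median of -0.27. In the proteasome all 40 were negative and 3 fell, with a median of -0.34. With quantile normalization these medians were -0.28 for ribosome biogenesis, -0.19 for the respiratory chain and -0.30 for the proteasome. A pseudocount of 0.1 or the index as a block called 0 genes of ribosome biogenesis and of the proteasome. The shares called lower were 3.08% for ribosome biogenesis, 1.45% for the respiratory chain and 7.5% for the proteasome. Over all symbols tested 6.24% were called lower, so these calls do not set the lists apart. A negative log2 fold change was seen in 7124 of the 13418 genes.

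The called genes were the ribosome assembly factors nop16 and imp4, the complex I subunit NDUFB3, the proteasome subunits psma1 and psmb6 and the proteasome activator psme2. Their log2 fold changes were -0.69 for nop16, -0.55 for imp4, -0.87 for NDUFB3, -0.60 for psma1, -0.55 for psmb6 and -0.85 for psme2.

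Of 41 chaperones tested 2 fell and 0 rose. Both work in the endoplasmic reticulum. The disulfide isomerase pdia3 had 45.3 and 45.5 FPKM in knockdown MG, against 84.7 and 86.7 FPKM in injured MG. Calreticulin, calr, had 33.98 and 32.0 FPKM in knockdown MG, against 56.2 and 58.8 FPKM in injured MG. Of 24 genes of cholesterol synthesis and its regulators tested 2 rose and 0 fell, srebf1, a regulator of lipid synthesis, with a log2 fold change of 0.61 and scd, a fatty acid desaturase, with one of 0.74, of which a pseudocount of 0.1 called 0.

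DNA demethylation has been discussed as a role of Apobec proteins. Of 26 genes of DNA methylation, demethylation and deamination tested 2 rose and 2 fell. The methylcytosine dioxygenase gene tet3 had 19.7 and 20.4 FPKM in knockdown MG, against 11.5 and 10.3 FPKM in injured MG and 12.4 and 12.8 FPKM in uninjured MG (log2 fold change 0.82, SE 0.11, adjusted p = 0.0214). A stress-induced gene linked to demethylation, gadd45g, had 194 and 186 FPKM in knockdown MG, against 102 and 106 FPKM in injured MG and 28.7 and 29.3 FPKM in uninjured MG (log2 fold change 0.86, SE 0.10, adjusted p = 0.0164). The maintenance methyltransferase gene dnmt1 had 8.17 and 6.02 FPKM in knockdown MG, against 15.2 and 12.9 FPKM in injured MG (log2 fold change -0.90, SE 0.18, adjusted p = 0.0493). Its partner uhrf1 had 1.34 and 1.40 FPKM in knockdown MG, against 2.62 and 2.48 FPKM in injured MG. The falls depended on the settings. Quantile normalization called 3 genes of the list higher and 0 lower, median of ratios scaling 3 higher and 1 lower, and a pseudocount of 0.1 gave 2 higher and 1 lower.

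Of 53 histone modifiers tested 1 rose and 3 fell. A histone H3 demethylase gene, kdm5ba, had 44.2 and 46.2 FPKM in knockdown MG, against 29.98 and 27.3 FPKM in injured MG. The chromatin remodeller hells had 2.37 and 2.33 FPKM in knockdown MG, against 5.52 and 5.18 FPKM in injured MG. The histone variant h2afx and the methyltransferase suv39h1b had log2 fold changes of -0.82 for h2afx and -0.58 for suv39h1b.

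Of 22 interferon response genes tested 4 rose and 3 fell. An RNA sensor of the RIG-I family, DHX58, had 3.39 and 2.55 FPKM in knockdown MG, against 0.85 and 0.70 FPKM in injured MG (log2 fold change 1.15, SE 0.15, adjusted p = 0.0192). The antiviral GTPase gene mxe had 1.11 and 1.36 FPKM in knockdown MG, against 0.14 and 0.29 FPKM in injured MG. The ubiquitin-like isg15, named after its values were seen, had 31.7 and 24.1 FPKM in knockdown MG, against 13.1 and 11.4 FPKM in injured MG and 3.33 and 1.78 FPKM in uninjured MG. Of the genes that fell, the guanylate binding protein gene gbp1 had 2.83 and 3.56 FPKM in knockdown MG, against 7.84 and 6.71 FPKM in injured MG. Both DHX58 and mxe reached the level required through the knockdown group alone.

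Markers of MG moved both ways. Of 23 tested 2 rose and 3 fell, with a median log2 fold change of 0.02. Glutamine synthetase, glula, had 749.7 and 783 FPKM in knockdown MG, against 466 and 463 FPKM in injured MG and 1196 and 1280.4 FPKM in uninjured MG (log2 fold change 0.72, SE 0.10, adjusted p = 0.0234 from limma). Caveolin 1, cav1, had 37.3 and 35.6 FPKM in knockdown MG, against 19.6 and 22.4 FPKM in injured MG. Vimentin, vim, had 45.4 and 43.8 FPKM in knockdown MG, against 77.4 and 72.0 FPKM in injured MG. Quantile normalization and a pseudocount of 0.1 each called 1 gene of the list lower. The knockdown values of vim were the lower ones and those of glula and cav1 the higher ones.

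An apolipoprotein E gene of glia and phagocytes, apoeb, had 942 and 926 FPKM in knockdown MG, against 1478 and 1762 FPKM in injured MG. The glutamate transporter slc1a3a, which also fell and was named after its values were seen, had a log2 fold change of -0.78. It lay near the level required, with 1.16 and 0.87 FPKM in knockdown MG, against 2.70 and 2.22 FPKM in injured MG and 1.00 and 0.59 FPKM in uninjured MG. By the labels the promoter of gfap drives the GFP of the sort, while the study's methods name a tuba1a:GFP line for injured retinas. The gfap row had 49.8 and 46.7 FPKM in knockdown MG, against 68.3 and 66.7 FPKM in injured MG and 22.4 and 24.7 FPKM in uninjured MG (log2 fold change -0.48, SE 0.10, adjusted p = 0.0593 from limma). The retinaldehyde binding protein gene of MG, rlbp1a, had 86.1 and 92.5 FPKM in knockdown MG, against 83.9 and 92.3 FPKM in injured MG (log2 fold change 0.02, SE 0.11, adjusted p = 0.921). Neither gfap nor rlbp1a was called. In fits to 3 libraries limma called 0 genes of this list, and 7 to 9 then had an unadjusted p under 0.05.

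RNA of other retinal cells was present too. Of 25 cone genes tested 12 fell and 0 rose, with a median log2 fold change of -0.79. The ultraviolet opsin opn1sw1 had 239.8 and 203 FPKM in knockdown MG, against 593 and 675 FPKM in injured MG and 1402 and 1377 FPKM in uninjured MG (log2 fold change -1.52, SE 0.14, adjusted p = 0.00955). Cone transducin, gnat2, had 92.7 and 71.3 FPKM in knockdown MG, against 188 and 193 FPKM in injured MG and 340.3 and 340.2 FPKM in uninjured MG. Its partner gngt2a had 41.3 and 30.3 FPKM in knockdown MG, against 98.0 and 92.7 FPKM in injured MG. The opsin kinase grk7a had 4.80 and 3.59 FPKM in knockdown MG, against 10.7 and 11.12 FPKM in injured MG. In all 4 genes knockdown library b was the lowest library. Both knockdown values were below both injured values, as in every gene called lower.

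The summed FPKM of cone genes was 4455 and 3516 in knockdown MG, against 6979 and 7421 in injured MG and 7012 and 6849.5 in uninjured MG. With 1 library left out at most 2 cone genes were called, with the index as a block 7, and a pseudocount of 0.1 gave 5. The median lay between -0.99 and -0.64 with 1 library left out.

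Of 19 rod genes tested limma called 0, and 3 had an unadjusted p under 0.05. Summed over the rod list, FPKM were 6204.5 and 5963 in knockdown MG, against 5806 and 8017 in injured MG. In uninjured MG they were 16317 and 17055. The MG marker list summed to 3980 and 3962 in knockdown MG and 4400 and 4689 in injured MG. It summed to 3989 and 4073 in uninjured MG, so rod sums were higher in all groups. The values are thus levels in a mixed sample of sorted cells. Rhodopsin, rho, had 3351 and 3200.2 FPKM in knockdown MG, against 3369 and 4934 FPKM in injured MG and 7954 and 8087 FPKM in uninjured MG (log2 fold change -0.32, SE 0.21, adjusted p = 0.364). Its injured libraries differed from each other by more than the knockdown libraries did, and with quantile normalization its log2 fold change was 0.12. The rod transducin subunit gngt1 had 736 and 708 FPKM in knockdown MG, against 588 and 909 FPKM in injured MG (log2 fold change -0.02, SE 0.23, adjusted p = 0.965), and its groups overlapped.

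The table holds 21 pigment epithelium and melanocyte genes and 10 were tested, of which 4 fell and 0 rose. The pigment genes pmelb, dct and pmela had log2 fold changes of -1.40 for pmelb, -1.08 for dct and -0.72 for pmela. The retinol uptake receptor stra6 had one of -0.69. Limma called 0 of these in fits to 3 libraries, and 5 to 9 of the list had an unadjusted p under 0.05.

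Of 17 bipolar cell genes tested 1 was called, samsn1a, with 30.7 and 29.2 FPKM in knockdown MG, against 46.6 and 47.4 FPKM in injured MG, which also stands on the microglia and macrophage list. Of 19 amacrine and horizontal cell genes tested 1 was called, the glycine transporter slc6a9, which MG share. It rose and had 46.6 and 50.5 FPKM in knockdown MG, against 29.5 and 33.2 FPKM in injured MG and 191 and 199 FPKM in uninjured MG. Of 10 endothelial genes tested 3 rose and 2 fell, and both that fell reached the level through injured MG alone. The claudin cldn5b had 21.5 and 23.5 FPKM in knockdown MG, against 9.13 and 8.95 FPKM in injured MG. The receptor kinase tie1 had 0.21 and 0.12 FPKM in knockdown MG, against 1.33 and 1.53 FPKM in injured MG. Their log2 fold changes were 1.23 for cldn5b and -1.06 for tie1, beside -1.25 for the Ets factor fli1b and 0.54 for the receptor tie2. Of 11 oligodendrocyte genes tested 3 fell, olig2, nkx2.2a with a log2 fold change of -0.62 and plp1b with -0.58. Of these nkx2.2a reached the level through injured MG alone, and 2 of the other 10 genes fell. Quantile normalization left 1 of the 3 called.

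The remaining cell types had 0 genes called by limma. These were 14 tested genes of ganglion cells with 1 at an unadjusted p under 0.05, 11 of pericytes and fibroblasts with 3, 5 lens crystallins with 1, 5 of erythrocytes with 0 and 2 of lymphocytes with 0. Their most abundant genes had log2 fold changes of -0.23 for sncga and 0.24 for sncgb (synucleins), 0.72 for rgs5a and 0.24 for rgs5b (G protein regulators of pericytes), -0.62 for crybb2 and -0.08 for cryba1l (crystallins), and -0.19 for sla2 and 0.14 for tox. The globin gene hbaa1 had 127 and 129 FPKM in knockdown MG, against 144 and 362 FPKM in injured MG and 41.3 and 49.6 FPKM in uninjured MG. Another globin gene, ba1, had 111 and 110.0 FPKM in knockdown MG, against 122 and 309.8 FPKM in injured MG and 40.1 and 57.4 FPKM in uninjured MG. Injured library b thus held more globin RNA than any other library, and the 2 genes share a locus.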

How the data were processed

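GFP+ cells sorted from 6 retina preparations in 3 groups were measured by RNA-seq. The deposited table gives FPKM (fragments per kilobase of transcript, scaled to mapped fragments) for each gene row and library, which the authors made with TopHat and Bowtie2 (after CASAVA, per the submitters' processing notes, without versions). The genome build and annotation are not given in the sources used here. The layout is that of Cuffdiff, and a value of exactly 0 may stand for an estimate that failed. Columns of the authors' own means and comparisons were not used, nor were 6 per-library columns named as scaled fragments, which match no sample. Each of the 30689 gene rows stands 3 times in the table, once per comparison, and was taken once. Columns were assigned to groups by their names, and the index a or b matches no number in the labels.

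Rows of 1 symbol were summed (106 of the 13418 genes). Names were checked against RefSeq (GRCz12tu): 8533 were found as protein-coding genes and 4885 were not matched and were kept as named. In 127 cases a row holds several gene names, and 134 tested rows shared with clones or short RNAs were left out, a choice made with values seen. Of 235 genes named by the rule or later, 29 share a locus with another symbol. Among them are mob1a with 9 other symbols, and calr and the TK1 (1 of 2),tk1 row with 6 each. Genes with at least 1 FPKM in 2 of the 4 libraries were tested with limma 3.58.1 (R 4.3.3; lmFit and eBayes on log2(FPKM + 1), no covariates, two-sided, Benjamini-Hochberg over 16680 symbols, threshold 0.05), so fold changes of low genes are understated. The genes, lists and tests were chosen with earlier results of these data known. Named genes were the 15 largest rises and the 15 largest falls among called genes with a mean above 5 FPKM in a group and no overlap, up to 4 called genes of smallest adjusted p per list (or, with none, the 2 most abundant), and a set of genes of the injury response. Of that set 1 gene is not reported here. The test was run on simulated data first. Alternatives changed the pseudocount, scaling, prior, libraries, filter, summing, block and threshold. Tables and plots were made with Python 3.11.15, pandas 2.3.3, NumPy 2.4.6 and Matplotlib 3.10.9.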

Additional observations from a re-analysis of the deposited data

How the results depend on the processing

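Against 1191 called genes, 394 higher and 797 lower, a pseudocount of 0.1 gave 780 genes (218 higher), no filter on low values 705 (199 higher, 506 lower), a trended and robust prior 1885 (702 higher) and all 3 groups in the fit 1870 (740 higher). The study's rule of a 2-fold difference of means above 5 FPKM, which has no test, gave 501 genes (140 higher, 361 lower), and the adjusted p with a log2 fold change of at least 1 gave 529 (103 higher, 426 lower). With 1 library left out 86 to 169 genes were called, 4 to 14 as higher and 80 to 155 as lower. Quantile normalization moved the median log2 fold change of all symbols tested to 0.04. The cause of these differences was not tested. No paired analysis was possible because the columns carry no replicate number of the labels. With the table's own index as a block 832 genes were called, 229 higher and 603 lower, of which 766 were among the 1191, and deviations under the same index had a Pearson correlation of 0.07. Of 181 called genes named in the text, 121 kept their call under every alternative that left all 4 libraries in. Of 208 genes named 181 were called. Of these 181, 41 lost their call with the block, 42 with a pseudocount of 0.1, 49 with no filter and 11 with quantile normalization. With 1 library left out, more of them lost it than under any of these settings. The genes that turned sign were not called. With quantile normalization rho had a log2 fold change of 0.12, gngt1 of 0.35 and cryba1l of 0.072, and gngt1 had 0.0063 with median of ratios scaling. With 1 library left out, ascl1a lay between -0.21 and 0.028, lin28a between -1.25 and 0.048, rlbp1a between -0.048 and 0.088, gngt1 between -0.33 and 0.30 and cryba1l between -0.40 and 0.24.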
